A study of Mus musculus with 2 samples.

Results

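Calcium and magnesium handling along the nephron was described with 10 genes, which were listed by their known roles, with earlier results of these data known. They were the calcium-sensing receptor Casr, the parathyroid hormone receptor Pth1r, the channels Trpv5, Trpm6 and Trpm7, the calcium-binding proteins Calb1 and S100g, the calcium pumps Atp2b1 and Atp2b4, and the sodium-calcium exchanger Slc8a1. Of the 10, 9 were found by symbol among the 19505 genes of the array, each with 1 probe set, and all 9 were measured. Atp2b4 had no probe set under its symbol and was not analysed here. Gene expression was compared in cells labelled as PT cells from mice labelled wild type and from mice labelled KAT5 knockout (KAT5 KO), both labelled male and taken at 8 weeks of age. Each genotype had a single Clariom S array, which reads gene levels from labelled RNA bound to short probes. The KAT5 KO mice carried floxed KAT5 and a Cre driven by the γGT promoter, which acts in the S1 to S3 segments of the PT, and KAT5 is a lysine acetyltransferase that modifies chromatin. PT cells were obtained in the study by depletion of CD31-positive endothelial cells followed by magnetic sorting on Prominin1. The sources used here do not say whether an array held RNA of 1 animal or of several.

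All levels are RMA values on the log2 scale, and all differences are KAT5 KO minus wild-type, so that a difference of 1 is 2-fold. The background level of 5.13 was taken from 1448 odorant, vomeronasal and taste receptor genes, and levels under it were raised to it before a difference was formed. With 1 array per genotype there was no spread between animals, so no test could be run and no error can be given. The precision is limited by this number of arrays. Kat5 was at 10.20 in the wild-type sample and at 8.67 in the KAT5 KO sample, or 34.8% of the former. Y-linked Kdm5d, Uty and Eif2s3y were between 7.69 and 10.11 on the wild-type array and between 2.29 and 3.76, under background, on the KAT5 KO array, against the male label of the latter. All 10 PT markers examined were higher on the KAT5 KO array (median 7.41), whereas 6 of 6 markers of the thick ascending limb were lower (median -4.24). On the wild-type array itself all 10 PT markers were above background, from 5.21 for Slc22a6, only barely above it, to 13.77 for Slc34a1. Umod of the thick ascending limb was at the highest value on the arrays there, and the distal and macrophage markers Slc12a3 and C1qb were at 18.14 and 18.12. On the KAT5 KO array Slc12a3, C1qb and Umod were still at 16.25, 16.45 and 15.65. These levels go against a sample of PT cells alone on either array, and the name is used here as the labels give it. These features of the arrays move with every value below, and their part in the results was not tested.

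The kidney recovers calcium and magnesium in different ways along the nephron. In the PT and the thick ascending limb, both ions mostly pass between the cells through pores formed by claudins, and Casr on the thick ascending limb senses calcium in the blood and reduces paracellular uptake. In the late distal convoluted tubule and the connecting tubule calcium crosses the cells themselves. It enters through Trpv5, is carried and buffered by the calbindins Calb1 and S100g, and leaves through the pump Atp2b1 and the exchanger Slc8a1. Magnesium enters cells of the distal convoluted tubule through Trpm6. Pth1r, which is abundant in the PT and also present in distal segments, relays parathyroid hormone, which lowers phosphate reabsorption in the PT and promotes calcium reabsorption in distal segments.

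Of the 9 measured genes, 6 were 2-fold or more lower on the KAT5 KO array, 1 was 2-fold or more higher and 2 were within 2-fold. Over the 11652 measured genes, 15.9% were 2-fold or more lower and 17.7% were 2-fold or more higher. The median difference was -2.22 over the 9 genes and -0.05 over all measured genes. The 6 lower genes were Casr, S100g, Trpv5, Slc8a1, Calb1 and Trpm6. They cover sensing, entry, intracellular carriage and exit of calcium, and of magnesium the entry only. The higher gene was Pth1r, and Trpm7 and Atp2b1 were nearly level.

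**Figure D1:**
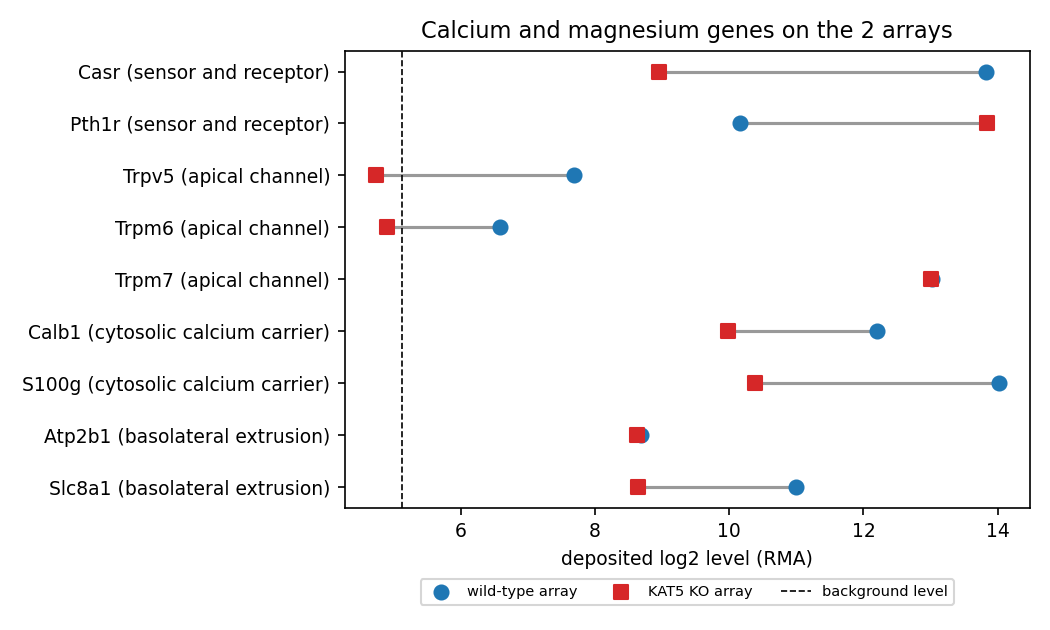
Deposited log2 level (x axis) of each of the 9 genes (rows, with their role) on the wild-type array (circle) and the KAT5 KO array (square), 1 array each, with the background level of 5.13 as a dashed line. Pth1r has its square to the right, Trpm7 and Atp2b1 have overlapping symbols, and the squares of Trpv5 and Trpm6 lie under the background level.

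The sensor Casr and the hormone receptor Pth1r were, of the 9, the genes furthest apart between the samples on either side. Casr was at 13.83 in the wild-type sample and at 8.96 in the KAT5 KO sample. It was thus well above background in both, and its difference of -4.88 left 3.41% of the wild-type level, which is 29.4-fold lower. A larger negative difference was found for 0.0172% of the measured genes. Pth1r, in the opposite direction, was at 10.16 in the wild-type sample and at 13.84 in the KAT5 KO sample. Its difference of 3.68, or 12.8-fold, was exceeded on the higher side by 3.25% of the measured genes. All 10 PT markers, from 6.16 for the phosphate cotransporter Slc34a1 to 9.24 for the organic anion transporter Slc22a6, had larger positive differences than Pth1r, and that of Slc34a1 is a lower bound because its level on the KAT5 KO array was the highest value on the arrays. Casr, in contrast, was lower by more than the measured difference of each of the 6 markers of the thick ascending limb, which ranged from -4.55 for the cotransporter Slc12a1 to -1.96 for Cldn16. The marker Umod (-4.28) was at the highest value on the wild-type array, so its difference may be understated, and its order against Casr is not settled.

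Among the channels, Trpv5 and Trpm6 were detected on the wild-type array only, whereas their relative Trpm7 was level. Trpv5, the apical calcium channel, was at 7.69 in the wild-type sample and at 4.74, under background, in the KAT5 KO sample, which makes it at least 5.87-fold lower (a difference of -2.55 or lower). Trpm6, the apical magnesium channel, was at 6.59 in the wild-type sample and at 4.91, also under background, in the KAT5 KO sample, at least 2.74-fold lower. Its wild-type level was close to background. With a stricter background level (5.89, the 99th percentile over receptor genes) its difference was -0.69 or lower, and that of Trpv5 was -1.79 or lower. As a bound, that of Trpm6 then does not settle whether it was 2-fold lower. Trpm7 encodes a channel fused to a kinase, like Trpm6, but is expressed in most cell types. It was at 13.02 in the wild-type sample and at 13.00 in the KAT5 KO sample, 98.9% of the former. Trpv6, the closest relative of Trpv5, was under background on both arrays, at 4.13 and 2.66.

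Both calcium-binding proteins were lower on the KAT5 KO array. S100g, the smaller calbindin, whose gene lies on the X chromosome, was at 14.01 in the wild-type sample and at 10.38 in the KAT5 KO sample. The difference of -3.63 is 12.4-fold, and 0.215% of measured genes had a larger negative one. Calb1, the larger calbindin, was at 12.20 in the wild-type sample and at 9.98 in the KAT5 KO sample, a difference of -2.22 that is 4.65-fold. Both remained above background on both arrays, and the difference of S100g was larger in size by 1.41 than that of Calb1 on the log2 scale.

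The routes of calcium exit were divided. The exchanger Slc8a1 was at 10.99 in the wild-type sample and at 8.64 in the KAT5 KO sample, with a difference of -2.35 that corresponds to 5.10-fold. The pump Atp2b1, which is expressed in most cell types, was at 8.69 in the wild-type sample and at 8.63 in the KAT5 KO sample, 95.6% of the former. Of the other pumps and exchangers of the plasma membrane, Atp2b3, Slc8a2 and Slc8a3 were under background on both arrays. Atp2b2 barely passed it in the wild-type sample, at 5.16, and was at 4.59 in the KAT5 KO sample.

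**Figure D2:**
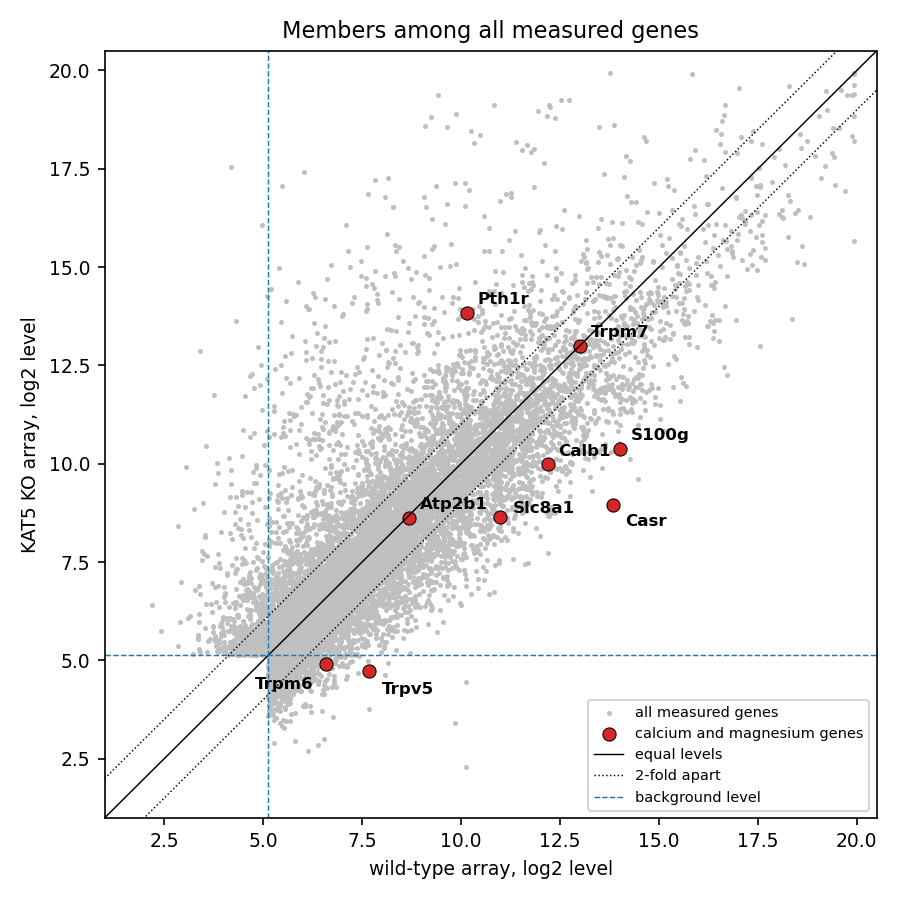
Log2 level on the wild-type array (x axis) against the KAT5 KO array (y axis) for all 11652 measured genes (grey points) and the 9 calcium and magnesium genes (large points, named), with lines for equal levels, for 2-fold and for the background level. Casr and S100g lie far below the lower 2-fold line, Pth1r above the upper one, and Trpm7 and Atp2b1 on the line of equal levels.

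The DNA before the start sites was examined for sequence features that genes of one direction share, since 5 of the lower genes and both level genes had such sequence in the reference. A window of 250 bases before each annotated start was taken from RefSeq (GRCm38.p6) for 9 of the 10 listed genes, Atp2b4 among them, and none was found for Calb1. Windows are shown for Casr, Trpv5 and S100g, which were lower, and for Trpm7, which was level, 5′ to 3′ on the strand of the gene, with each CpG in capitals. They lie at chr16:36562135-36562384, chr6:41680724-41680973, chrX:162964600-162964849 and chr2:126876262-126876511, all on the minus strand.
Casr: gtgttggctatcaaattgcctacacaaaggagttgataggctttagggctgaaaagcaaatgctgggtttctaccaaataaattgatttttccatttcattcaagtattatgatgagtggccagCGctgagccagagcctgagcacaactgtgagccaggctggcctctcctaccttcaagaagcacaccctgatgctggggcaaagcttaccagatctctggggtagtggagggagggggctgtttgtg
Trpv5: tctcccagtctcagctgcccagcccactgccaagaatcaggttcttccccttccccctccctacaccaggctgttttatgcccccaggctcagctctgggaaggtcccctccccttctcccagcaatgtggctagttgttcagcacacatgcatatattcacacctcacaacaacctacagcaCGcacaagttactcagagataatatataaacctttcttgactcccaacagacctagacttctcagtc
S100g: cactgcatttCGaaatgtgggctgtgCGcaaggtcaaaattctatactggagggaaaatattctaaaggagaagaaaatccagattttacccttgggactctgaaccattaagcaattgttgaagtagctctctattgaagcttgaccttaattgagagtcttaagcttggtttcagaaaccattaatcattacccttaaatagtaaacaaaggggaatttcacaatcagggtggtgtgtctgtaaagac
Trpm7: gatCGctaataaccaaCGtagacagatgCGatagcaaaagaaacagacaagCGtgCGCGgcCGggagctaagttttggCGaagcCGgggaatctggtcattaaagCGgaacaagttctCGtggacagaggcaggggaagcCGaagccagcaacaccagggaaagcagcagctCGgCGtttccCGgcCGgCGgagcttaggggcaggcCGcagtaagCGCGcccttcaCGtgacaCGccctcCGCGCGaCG

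The window of Trpm7 held 26 CpG, whereas those of Casr, Trpv5 and S100g held 1, 1 and 2. The other lower genes, Trpm6 and Slc8a1, had 7 and 8, and the level gene Atp2b1 had 43 and 41 in its 2 windows. The 3 windows of Pth1r, the higher gene, held 3, 16 and 22. The median over the 32851 windows of all genes was 6, and 62.2% of them held fewer than 10. Among all windows, those of the 5 lower genes were thus on the common side of 10 CpG, and those of Trpm7 and Atp2b1 on the rich side. Of the measured genes, 2624 held fewer than 10 CpG in every window and 6848 held 10 or more in a window. Among measured genes the 5 lower genes were thus in the smaller class. Matches to TATAAA, the TATA box, were searched on both strands, and 12.4% of all windows held one. Trpv5 alone among the windows of these genes had a match, which starts 43 bases before the start site. The hexamers AGGTCA and also AGTTCA and GGTTCA, which occur in binding sites of the vitamin D receptor and of other nuclear receptors, were found in 14.0%, 11.8% and 8.85% of all windows. Among these genes they were found in S100g only, with AGGTCA at 220 and 107 bases and GGTTCA at 149 bases before the start. GGGCGG, the GC box, was found in windows of Pth1r and Atp2b1 and in 32.7% of all windows. No match of one motif overlapped a match of another in these windows, and a match describes these letters only.

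Other genes of calcium and magnesium handling were spread to both sides. Of 60 such genes, 57 were on the array and 47 were measured, of which 15 were 2-fold or more higher on the KAT5 KO array and 11 were lower (median difference 0.05). These shares of the measured genes can be read beside the 17.7% and 15.9% over all genes. Umod, Klk1, Egf, Cldn16 and Wnk4, all among the lower genes, are also in the lists of segment markers used below, so the lists overlap.

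Of 5 measured claudins, 3 were higher and 2 were lower. Cldn16 (7.11 to 5.15) and Cldn19 (8.86 to 5.86) together form the cation pathway of the thick ascending limb. They differed by -1.96 (-1.22 or lower with the stricter background level) and -2.99. Cldn2, a cation pore of the PT, was at 5.84 in the wild-type sample and at 10.50 in the KAT5 KO sample (difference 4.66). Cldn12 (2.84) and Cldn10 (2.47) were also higher, and Cldn14 and Cldn3 were under background on both arrays. The probe set of Cldn10 was not resolved into the isoforms of the PT and the thick ascending limb.

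Of 14 measured genes of magnesium transport and its regulation, 3 were higher, 3 were lower and 8 were within 2-fold. Egf, the growth factor that stimulates Trpm6, was at 16.71 in the wild-type sample and at 12.25 in the KAT5 KO sample (difference -4.46). Its receptor Egfr was under background in the wild-type sample and at 6.98 in the KAT5 KO sample, at least 3.59-fold higher (a difference of at least 1.08 with the stricter background level). Kcnj10, the basolateral potassium channel of the distal convoluted tubule, differed by -1.66 and the mitochondrial magnesium transporter Slc41a3 by -1.38. Pcbd1, an enzyme that recycles tetrahydrobiopterin, was higher by 4.29 and the sodium pump subunit Fxyd2 by 1.21. Cnnm2, linked to magnesium transport in the distal convoluted tubule, was level, at 8.05 in the wild-type sample and 8.07 in the KAT5 KO sample.

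Of 6 measured genes of vitamin D, klotho and hormone receptors, 4 were higher and 0 were lower. Cyp24a1, which inactivates vitamin D, was at 6.31 in the wild-type sample and at 10.63 in the KAT5 KO sample (difference 4.31). Cyp27b1, which activates vitamin D, was under background in the wild-type sample and at 6.89 in the KAT5 KO sample, at least 3.37-fold higher. With the stricter background level of 5.89 its difference was at least 0.99, a bound short of 2-fold, and 3 of these genes were then counted as higher. The receptors Fgfr4 and Fgfr3 can bind the phosphate-regulating hormone Fgf23 together with klotho. They were higher by 3.08 (at least 2.38 with the stricter background level) and 2.36, and Fgfr1 was under background on both arrays. Vdr, the vitamin D receptor, and Kl, klotho, had differences of 0.87 and 0.88, within 2-fold.

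Signalling from Casr and Pth1r was closer to level than the receptors. Gnas, the stimulatory G protein of Pth1r, differed by -0.60, and Gna11, Gnaq and Ap2s1, which act with Casr, by 0.51, -0.83 and 0.05. Adcy6, an adenylate cyclase, was 2-fold or more lower (-1.13). Among 8 partners and regulators of Trpv5, 4 were lower and 3 were higher. Umod, the uromodulin of the thick ascending limb, differed by -4.28, a bound on the lower side, and Klk1, the tissue kallikrein of the connecting tubule, by -2.77. Anxa2 was lower (-2.35), although its partner S100a10, which carries Trpv5 to the membrane together with it, was higher by 1.05. Tgm2, which crosslinks Trpv5, was higher by 3.32. Of 6 genes of calcium stores, Atp2a2, the pump of the endoplasmic reticulum, was higher by 2.60 and the others were within 2-fold. Among relatives of the channels and exchangers, Trpv4 was higher by 2.83 and the mitochondrial exchanger Slc8b1 was lower, with a difference of -1.36.

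**Figure D3:**
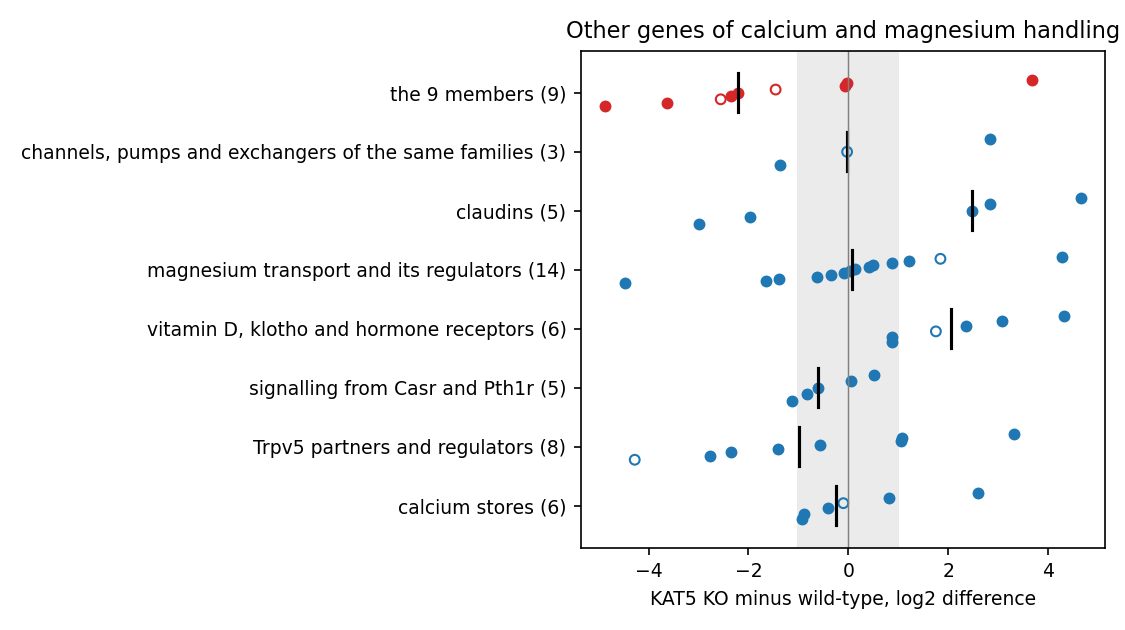
KAT5 KO minus wild-type log2 difference (x axis) of the 9 genes and of the other calcium and magnesium genes by role (number measured in parentheses), with 1 point per gene, black bars at medians and the range within 2-fold shaded. Open points are genes under background on 1 array or at the highest value of the arrays. The vitamin D and hormone receptor genes lie to the right of zero, whereas claudins and Trpv5 partners lie on both sides.

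The lower calcium and magnesium genes were set beside markers of the segments in which they are known to be expressed. In RNA of many cells together, fewer cells of a type and less RNA per cell cannot be told apart. Of 5 measured markers of the distal convoluted tubule, 3 were 2-fold or more lower, from -3.89 for Slc16a7 to -0.26 for Pvalb, with a median of -1.41. The sodium chloride cotransporter Slc12a3, the defining transporter of that segment, was at 18.14 in the wild-type sample and at 16.25 in the KAT5 KO sample (difference -1.89). Calb1, Slc8a1 and S100g each had a larger negative difference than 4 of these 5 markers, and Slc16a7 was lower by more than each. The difference of Trpv5, -2.55 or lower, was also larger than those of 4 markers, but its order against Slc16a7 is not settled because it is a bound. With the stricter background level Trpv5 was at -1.79 or lower, and its order against Slc12a3 is then not settled either. Trpm6, at -1.46 or lower, had a larger negative difference than 3 of the 5. Its order against Slc12a3 and Slc16a7 is not settled because it is a bound too. With the stricter background level Trpm6 was at -0.69 or lower, and its order against Wnk4 is then not settled either. Of 8 measured markers of the connecting tubule and principal cells, 6 were lower, with a median of -2.85 and a range from -4.08 for Hsd11b2 to -0.32 for Avpr2. Calb1 (-2.22) and Slc8a1 (-2.35) lay inside that range, with 5 of the 8 markers lower by more than either. S100g (-3.63) was lower by more than 7 of the 8.

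Trpm7 and Atp2b1, in contrast, lay above all measured markers of the thick ascending limb, the distal convoluted tubule, the connecting tubule and the intercalated cells. The summed log2 level of the markers was 20.42 in the wild-type sample and 16.10 in the KAT5 KO sample for the thick ascending limb, 18.30 and 16.29 for the distal convoluted tubule, 19.72 and 16.94 for the connecting tubule and principal cells, and 14.82 and 21.65 for the PT. The first 3 of these sums are carried mostly by 1 gene each, Umod, Slc12a3 and Klk1. Umod on the wild-type array and Slc34a1 on the KAT5 KO array were at the highest value, so the 2 sums that hold them are lower bounds. None of the measured markers of these segments was under background on either array. Markers of intercalated cells (median -2.65), endothelium (-1.16), fibroblasts and mural cells (-1.03) and myeloid cells (-1.79) were lower as well. The part of these differences in those of the calcium and magnesium genes was not tested.

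**Figure D4:**
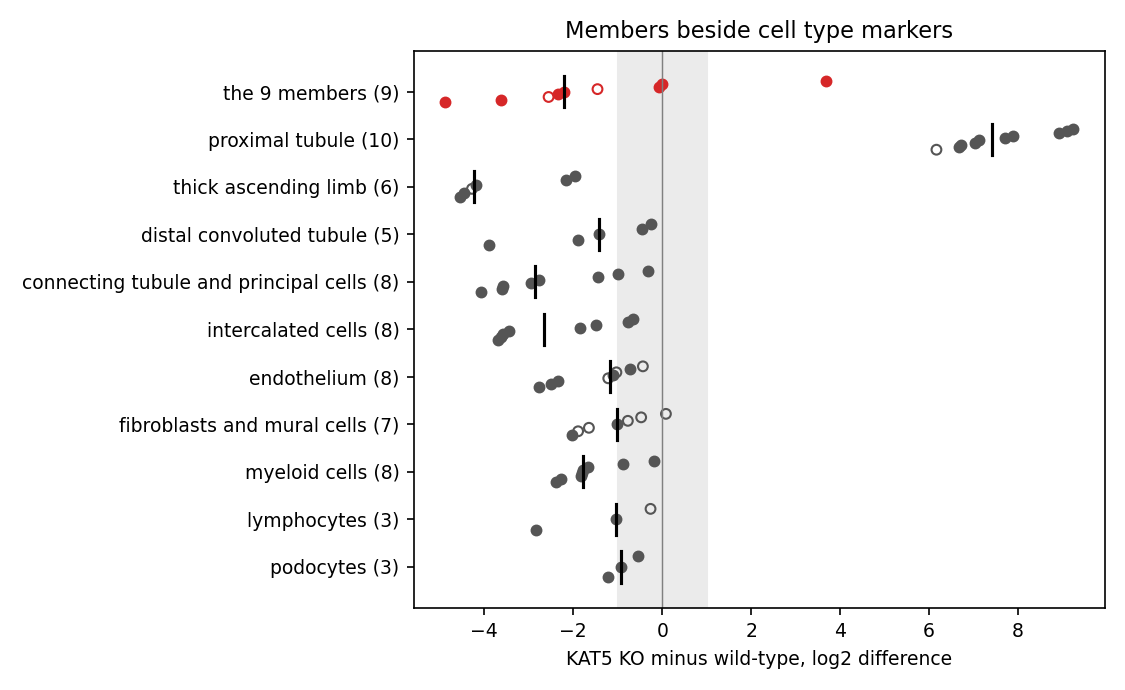
KAT5 KO minus wild-type log2 difference (x axis) of the 9 genes and of markers of kidney and immune cell types (rows, number measured in parentheses), drawn as in the plot of genes by role. PT markers lie between 6.16 and 9.24, to the right of all other points, and the lower calcium and magnesium genes other than Casr lie within the span of the measured differences of the distal segment markers. Casr, at -4.88, lies next to the thick ascending limb markers, of which Umod is a bound.

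Genes with the most similar pair of levels were sought for Pth1r and Casr, by the distance between their log2 levels over the 2 arrays. For Pth1r these were Tmem64 (distance 0.12), Prxl2a (0.17) and Jchain (0.17). For Casr they were Ccl9 (0.63), the water channel Aqp2 of principal cells (0.90) and Oxgr1 (0.92). Oxgr1, the receptor for oxoglutarate in intercalated cells, differed by -4.87, close to the -4.88 of Casr. With 2 arrays, such a likeness rests on 2 values per gene.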

How the data were processed

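RNA of cells sorted and labelled as PT cells (64 ng) was hybridised to Clariom S arrays, 1 for each genotype. The deposited values are log2 levels of 28846 probe sets, which the authors computed with RMA in the Transcriptome Analysis Console (versions not given in the sources used here). They were used without further scaling. The platform annotation gave 1 symbol for 19572 probe sets, and probe sets of 1 gene were averaged. The 95th percentile over 1448 receptor genes was taken on each array, and the higher value served as the background level. A gene counted as measured if either array exceeded it, and for a gene above it on 1 array only the fold is a lower bound.

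The members and gene lists were chosen with earlier results of these data known. Genes were named from the lists where they differed 2-fold or more, at most 4 for each role and direction, with level genes named for contrast. Wnk4 and Rab11a, both 2-fold or more apart, are counted but their differences are not described. With 1 array per genotype no array could be left out and no p-value was computed. Alternatives were other scalings (median centring, quantile normalization, a loess trend with span 0.3 removed), other background levels, the brightest probe set of a gene, and thresholds of 1.5-fold and 3-fold. The steps were tested on simulated data with 200 changed genes. These were all well above background and the other genes were left unchanged. Change in many genes and levels under background were thus not covered. Python 3.11.15, numpy 2.4.6, pandas 2.3.3, statsmodels 0.14.6 and matplotlib 3.10.9 were used.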

Additional observations from a re-analysis of the deposited data

How the results depend on the processing

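The side of 2-fold was the same in 61 of 63 values, for 9 genes under 7 alternatives. Part of this agreement was fixed in advance. Each of the 9 had 1 probe set, and all but Trpv5 and Trpm6 were above every background level used. The values of those other genes could thus not move with the background level or the choice of probe set. The values that changed side were both of Trpm6. Its bound was within 2-fold with background from the 99th percentile over receptor genes (-0.69) or the median over all probe sets (-0.99). The count of lower genes among the 9 was then 5 in place of 6, and it was also 5 at 3-fold. The count of higher genes was 1 under each alternative. Casr ranged from -4.99 to -4.67, S100g from -3.77 to -3.38, Trpv5 from -2.95 to -1.79 and Pth1r from 3.57 to 3.93. The small differences of Trpm7 (-0.19 to 0.29) and Atp2b1 (-0.21 to 0.02) had no settled sign. Both were positive with median centring, as was Trpm7 with the loess trend removed. At 1.5-fold, 3103 genes were higher and 3132 lower, and at 3-fold 1245 and 917, by the construction of the threshold. At 3-fold, 7 of the other calcium and magnesium genes were lower. No paired analysis was possible because each genotype had 1 array. Among the dim receptor genes the SD of the difference was 0.55, which describes probe sets near background and is not an error of the genes above it.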

Other observations

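The CpG content of the windows before the start sites was also compared over all measured genes, with a division at 10 CpG that was chosen after the values of the calcium and magnesium genes were seen. Of 2624 measured genes with fewer than 10 CpG in every window, 23.1% were 2-fold or more lower on the KAT5 KO array and 18.1% were higher. Of 6848 measured genes with 10 or more in a window, 13.0% were lower and 17.6% were higher. Casr, Trpv5, S100g, Trpm6 and Slc8a1 belong to the first class and Trpm7, Atp2b1 and Pth1r to the second. No test of this difference was run, and genes are not independent of each other.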
